A study of Mus musculus with 6 samples.

Results

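The genes described here are named for parts of the axoneme, the microtubule core of motile cilia and sperm flagella, or for cilia and flagella more widely. They are 58 of the 18193 genes measured, chosen by name as genes whose single annotated symbol begins with Tekt, Dnah, Dnai, Dnal, Dnaaf, Cfap, Rsph or Drc followed by a number or by a letter and a number. Some of the 58 encode assembly factors, or proteins tied to basal bodies or primary cilia, and not axoneme parts. Calling the set axonemal thus refers to the naming rule. Where a gene has several probe sets, the one with the highest mean across the 6 arrays stands for it. That mean was the sole measured value used in the rule, and because it includes the CCK-EGFP arrays, a set that is bright there can be chosen for that reason. By the mean over the non-EGFP arrays alone, another probe set would stand for 4 of the 58 genes, Cfap43, Dnah8, Dnal1 and Cfap61. Another 3 probe sets of these families carry several gene symbols and were left out.

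Sorted cells of 2 kinds were compared on Affymetrix mouse arrays, with 3 samples each. The first holds CCK-EGFP cells, intestinal cells sorted by flow cytometry for green fluorescence from adult Swiss Webster mice with a CCK-EGFP transgene. The other holds non-EGFP cells, the non-fluorescent intestinal cells sorted from mice of that strain and genotype, so the transgene is present in both groups. Cck is the hormone gene of enteroendocrine I cells, and the comparison asks how the sorted cells differ from other intestinal cells. The labels name neither the promoter construct nor the number of mice behind a sample, so p-values speak of the variation among these arrays only, and it may be technical.

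In an axoneme, dynein motors form outer and inner arms on the doublet microtubules and slide them past each other. Radial spokes and the nexin-dynein regulatory complex control that sliding, tektins and other filament proteins line the doublets, and cytoplasmic assembly factors fold the motors before they reach the cilium. Primary cilia, the single sensory cilia of many other cells, lack the motile dynein arms. Motile axonemes are typical of airway, oviduct and ependymal cells and of sperm, and the adult intestinal epithelium is not known for them.

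Genes for motile cilia often carry an X-box, the binding motif of RFX transcription factors, close to their start. The promoters printed below were picked, for genes of each outcome, from windows that hold a match to it or to its half-sites. That they show matches is therefore no observation, and not every gene has one. RefSeq promoter windows (GRCm38.p6, 250 bases before to 50 after a gene's start) matched 49 of the 58 genes. The X-box, searched as GTNNCC followed after 3 bases by GNAAC, was sought on both strands and found in at least 1 window of 10 of these 49 genes (20.4%), against 2.49% of 27025 genes with a window. The half-site GTTGCC was found in 15 (30.6%, against 14.1%). A second half-site, GTTGCT, was added after the sequences had been read and was found in 28 (57.1%, against 16.7%), so its share is no independent observation. Half-sites can lie inside the longer motif. A match is a description of letters and not of binding.

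The stretches run from 100 bases before the start to 50 after it on the gene's strand, 5′ to 3′, with every match to these motifs in capitals. Tekt2, Dnah9 and Cfap69 were higher in CCK-EGFP cells, Drc3 was lower and Cfap45 did not pass the test.
Tekt2, chr4:126325639-126325788, minus strand: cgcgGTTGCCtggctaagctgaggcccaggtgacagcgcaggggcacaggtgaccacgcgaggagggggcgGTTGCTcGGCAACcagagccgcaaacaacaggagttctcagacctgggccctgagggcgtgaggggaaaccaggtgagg
Dnah9, chr11:66168502-66168651, minus strand: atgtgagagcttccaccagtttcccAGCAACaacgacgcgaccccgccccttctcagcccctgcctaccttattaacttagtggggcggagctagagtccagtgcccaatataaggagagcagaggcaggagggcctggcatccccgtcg
Cfap69, chr5:5664183-5664332, minus strand: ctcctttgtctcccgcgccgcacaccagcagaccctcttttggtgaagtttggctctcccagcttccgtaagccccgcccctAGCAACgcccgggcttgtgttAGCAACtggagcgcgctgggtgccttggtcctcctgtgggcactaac
Drc3, chr11:60353280-60353429, plus strand: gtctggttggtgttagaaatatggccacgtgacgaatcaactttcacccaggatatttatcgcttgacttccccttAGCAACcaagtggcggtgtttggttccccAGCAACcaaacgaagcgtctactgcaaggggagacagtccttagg
Cfap45, chr1:172521030-172521179, plus strand: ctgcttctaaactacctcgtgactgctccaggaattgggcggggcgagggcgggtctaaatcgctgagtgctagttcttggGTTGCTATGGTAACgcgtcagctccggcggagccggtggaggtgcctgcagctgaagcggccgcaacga
In Tekt2 a pair of half-sites faces each other across 1 base, and Cfap45 alone of these 5 holds the longer motif.

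The half-sites occurred among genes of every outcome. At least 1 of the half-sites was found in 11 of 16 genes that were higher in CCK-EGFP cells and have a window, in 5 of 6 that were lower and in 19 of 27 that did not pass the test, against 27.9% of all genes with a window. These counts include GTTGCT, added after these sequences had been read, so their excess is no independent observation. GTTGCC alone was found in 4 of the 16, 1 of the 6 and 10 of the 27, against 14.1% of all genes with a window. The longer motif was found in 0 of the 16 higher genes, 2 of the 6 lower ones and 8 of the 27 others. It was searched at a single fixed spacing, so facing half-sites at another spacing are not counted. Pairs across 1 base lie in the higher genes Tekt2, Dnah6 and Dnah7a, and in Tekt4 and Dnaic2, which did not pass. The count of 0 is thus no sign that the higher genes lack such pairs. No test was made of these shares.

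Values are log2 RMA intensities as deposited, on which a step of 1 is a doubling. Differences are CCK-EGFP minus non-EGFP and were tested with limma over all 18193 genes at a Benjamini-Hochberg adjusted p of 0.05. A background level of 4.60 was taken from the means of 71 olfactory and vomeronasal receptor genes, as their 95th percentile. Where 1 group mean lay below it, the fold is computed against it and given as "at least". The sort was checked by Cck, at 13.52, 12.90 and 13.06 on the CCK-EGFP arrays against 8.65, 8.35 and 8.89 on the non-EGFP arrays, and all 16 enteroendocrine markers were higher in CCK-EGFP cells. Ildr1, the receptor gene the study is named for, read 6.94, 7.17 and 6.79 in CCK-EGFP cells against 2.86, 3.28 and 3.29 in non-EGFP cells. Markers of intestinal epithelium averaged 12.83 to 13.02 in CCK-EGFP cells against 12.59 to 12.82 in non-EGFP cells. Along the first principal component of all probe sets the arrays lay at -133.8, -135.4 and -94.1 in CCK-EGFP cells against 141.5, 123.1 and 98.8 in non-EGFP cells. CCK-EGFP replicate 3, the nearest of its group to the non-EGFP arrays there, also had the highest mean of the 12 enterocyte markers in its group, 12.42 against 11.66 and 11.78 on the other CCK-EGFP arrays and 12.75 to 12.85 on the non-EGFP arrays.

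A subset of axonemal genes was expressed well above background in CCK-EGFP cells, and the 5 with the largest fitted differences were Tekt2, Dnah9, Cfap69, Dnal1 and Cfap43, while many others stayed near background in both groups. The calls of Dnal1 and Cfap43 were lost with probe sets chosen by the non-EGFP mean. Of the 58 genes, 17 were higher in CCK-EGFP cells (29.3%, against 14.0% of all genes), 7 were lower (12.1%, against 10.2%) and 34 did not pass. The share that was lower is thus near the background of this comparison. This test was on group alone. With the replicate number as a block 14 were higher (24.1%, against 12.9% of all genes) and 5 lower (8.62%, against 8.43%). The median difference over the 58 was -0.17, and over all genes it was also -0.17. Without CCK-EGFP replicate 1 or replicate 2 the counts were 9 higher and 2 lower, and without non-EGFP replicate 3 they were 11 and 8. Without CCK-EGFP replicate 3 or non-EGFP replicate 2, the lower count was 4 (6.9%, against 7.61% and 4.84% of all genes). Of all genes, 8.07% were higher without CCK-EGFP replicate 1 and 7.5% without replicate 2, against 15.5% of the 58 in each. The lower shares of all genes there were 3.66% and 2.78%, against 3.45% of the 58. Without non-EGFP replicate 3 the shares were closer, 13.7% of all genes higher against 19% of the 58, and 10.8% lower against 13.8%. With each array centred on its median, 14 were higher (24.1%, against 11.5% of all genes) and 10 lower (17.2%, against 19.8%). The median of all genes moved to -0.42 there. With probe sets chosen by the non-EGFP mean, an alternative added after seeing the data, 13 were higher (22.4%, against 12.7% of all genes) and 7 lower (12.1%, against 10.3%).

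Both group means were below the background level for 22 of the 58 genes (37.9%, against 25.3% of all genes), and 22 had both means above it. Another 9 had a mean above it in CCK-EGFP cells alone and 5 in non-EGFP cells alone. The 3 CCK-EGFP arrays lay above all 3 non-EGFP arrays for 20 genes (34.5%, against 21.8% of all genes) and below all of them for 19 (32.8%, against 28.1%). The calls of 8 higher genes held when any 1 array was left out, namely Tekt2, Dnah9, Cfap69, Dnal1, Cfap43, Cfap300, Rsph9 and Rsph1. Of the lower genes, Cfap157 and Dnah12 kept theirs. These refits kept the probe sets chosen from all 6 arrays, so they do not test that choice. Of the 8 higher genes, Dnal1 and Cfap43 were not called with the set brightest in non-EGFP cells.

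**Figure D1:**
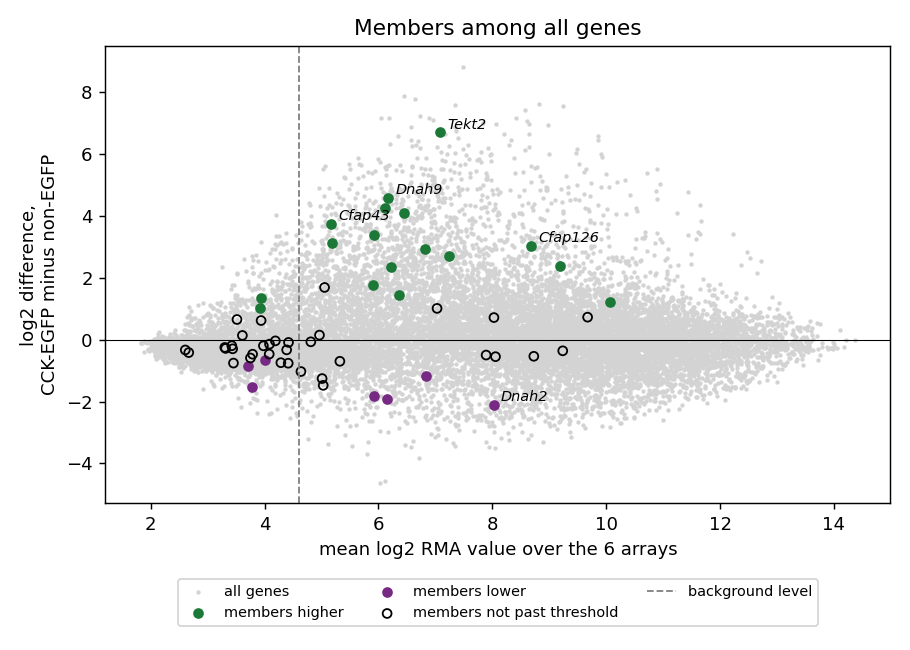
Mean log2 RMA value over the 6 arrays (x axis) against the log2 difference, CCK-EGFP minus non-EGFP (y axis), for all 18193 genes in grey and the 58 axonemal genes as larger circles, filled green where higher, filled purple where lower and open where not past the threshold; the dashed line is the background level of 4.60. Tekt2, at a difference of 6.70, lies highest of the 58.

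**Figure D2:**
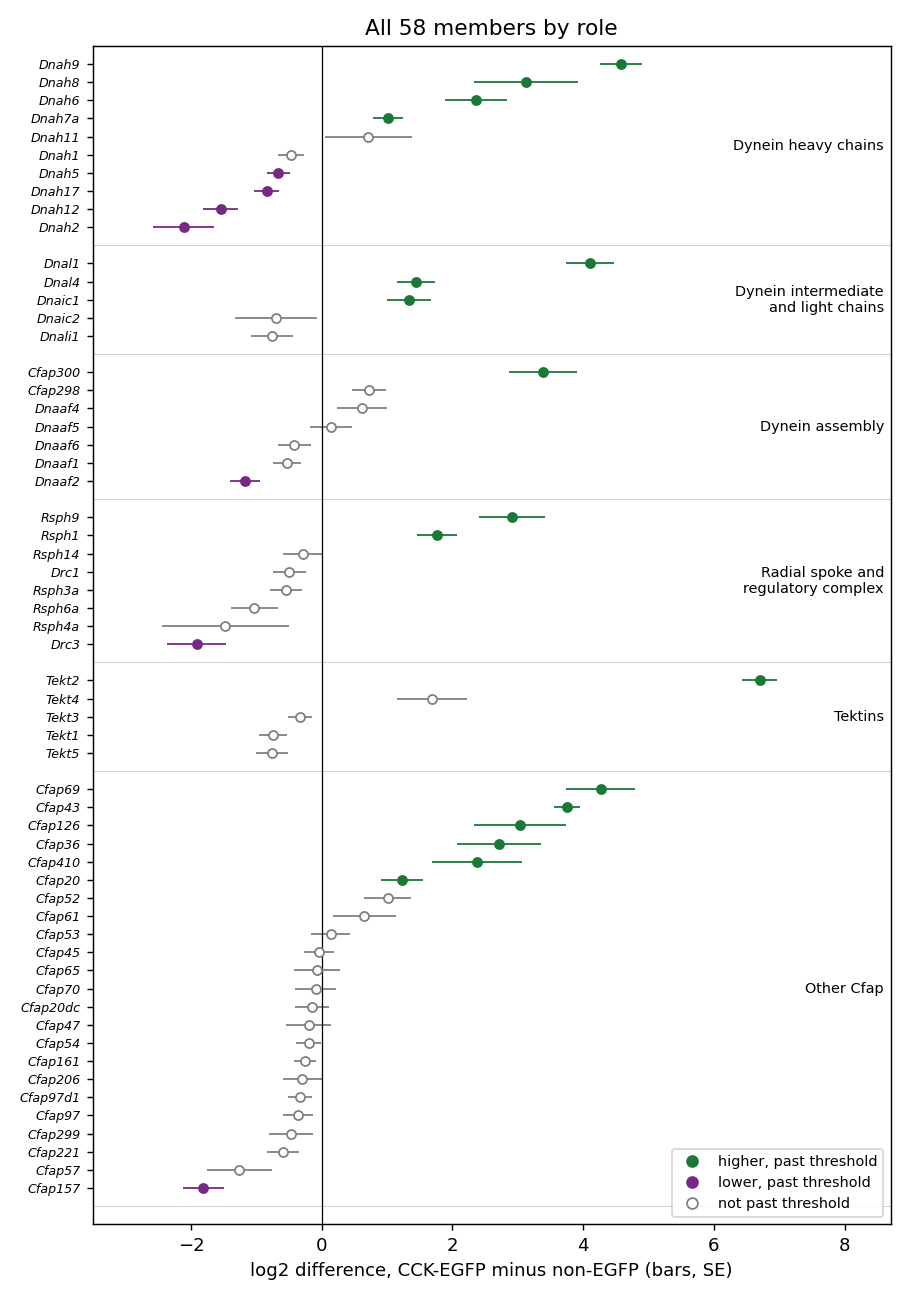
Log2 difference, CCK-EGFP minus non-EGFP, of each of the 58 genes with its standard error from the limma fit, grouped by role. Every role group except the tektins and the intermediate and light chains holds both higher and lower calls.

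The dynein heavy chains, the motor subunits themselves, numbered 10, of which 4 rose in CCK-EGFP cells, 4 fell and 2 missed the threshold. The shares were 40% higher, against 14.0% of all genes, and 40% lower, against 10.2%. Dnah9, an outer arm heavy chain, read 8.39, 7.94 and 9.04 in CCK-EGFP cells against 3.94, 3.57 and 4.14 in non-EGFP cells. The non-EGFP values all lay below the background level, and Dnah9 was at least 14.5-fold higher in CCK-EGFP cells (fitted difference 4.57, SE 0.33, adjusted p = 0.000439). Its other probe set was also called, by 1.21, with both means below the background level.

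Dnah8, an outer arm heavy chain known mainly from sperm, read 6.90, 7.45 and 5.89 in CCK-EGFP cells against 5.20, 2.11 and 3.56 in non-EGFP cells. The groups did not overlap, but the non-EGFP arrays were far apart, and the difference of 3.12 (SE 0.80, adjusted p = 0.0352) was not called with the replicate number as a block (0.0521) or without replicate 1 or 2 of CCK-EGFP cells or 2 or 3 of non-EGFP cells (adjusted p up to 0.118). A second Dnah8 probe set had means below the background level in both groups, differed by -0.38 and was the brighter in non-EGFP cells, at a mean of 4.57 against 3.62, so the call depends on choosing the set through the CCK-EGFP arrays. Dnah6, an inner arm heavy chain, read 8.02, 7.68 and 6.52 in CCK-EGFP cells against 4.49, 4.97 and 5.68 in non-EGFP cells, so its groups parted by less than 1 unit between CCK-EGFP replicate 3 and non-EGFP replicate 3. It was 5.14-fold higher (difference 2.36, SE 0.47, adjusted p = 0.0165), and the call ended without replicate 1 or 2 of CCK-EGFP cells or 2 of non-EGFP cells (up to 0.0676).

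Dnah2, another inner arm heavy chain, went the other way at 6.88, 6.64 and 7.39 in CCK-EGFP cells against 9.90, 8.16 and 9.18 in non-EGFP cells. All 6 values were above background, and Dnah2 was 4.33-fold lower in CCK-EGFP cells (difference -2.11, SE 0.46, adjusted p = 0.0211, up to 0.0821 without replicate 1 or 2 of CCK-EGFP cells or 3 of non-EGFP cells). Its other probe set was at background in both groups. The remaining called heavy chains had both means below the background level and were chosen for mention after their values were seen. These were Dnah7a (difference 1.02), Dnah12 (-1.55), Dnah17 (-0.84) and Dnah5 (-0.66), the first 2 of inner arms and the others of outer arms, and their differences lie within the background range. Dnah17 and Dnah5 were not called with the replicate number as a block (adjusted p = 0.0506 and 0.0708), Dnah7a was not called with arrays centred on their medians (0.0565), and the calls of all but Dnah12 ended without single arrays (up to 0.0821 for Dnah7a, 0.0957 for Dnah17 and 0.105 for Dnah5). Dnah7a has near-identical copies in the mouse genome, which its probes may not tell apart. Dnah11, an outer arm heavy chain, overlapped between the groups at 8.01, 7.67 and 9.48 in CCK-EGFP cells against 6.47, 8.33 and 8.21 in non-EGFP cells (difference 0.71, SE 0.66, adjusted p = 0.433).

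Of the 5 smaller dynein chains, 3 rose in CCK-EGFP cells (60%, against 14.0% of all genes) and 0 fell (against 10.2%). Dnal1, the light chain that binds the outer arm motor domain, read 8.98, 8.21 and 8.31 in CCK-EGFP cells against 4.42, 3.78 and 4.998 in non-EGFP cells. It was at least 14.95-fold higher in CCK-EGFP cells (fitted difference 4.10, SE 0.37, adjusted p = 0.00102). Its other 2 probe sets had means below the background level in both groups and differed by -0.77 and 0.66. The first of these was the brighter in non-EGFP cells, at a mean of 4.51 against 4.40 for the set used, so the Dnal1 call depends on choosing the set through the CCK-EGFP arrays. Dnal4, an outer arm light chain, read 7.01, 7.04 and 7.21 in CCK-EGFP cells against 5.39, 5.31 and 6.24 in non-EGFP cells (2.72-fold, difference 1.44, SE 0.29, adjusted p = 0.0162), a call that ended without CCK-EGFP replicate 1 or 2 (up to 0.061). Dnaic1, an intermediate chain of the outer arm, was called at 4.10, 4.82 and 4.89 in CCK-EGFP cells against 3.61, 3.49 and 2.72 in non-EGFP cells, its CCK-EGFP mean lying at the background level. The Dnaic1 call was lost with the replicate number as a block (adjusted p = 0.0662) and with arrays centred on their medians (0.0604), and ended without replicate 2 or 3 of CCK-EGFP cells or 2 or 3 of non-EGFP cells (up to 0.116). Dnal4 and Dnaic1 were named after their values were seen. Dnaic2, the partner intermediate chain, read 5.13, 5.02 and 4.77 in CCK-EGFP cells against 5.08, 7.20 and 4.74 in non-EGFP cells, where 1 array stood apart (difference -0.70, SE 0.63, adjusted p = 0.418).

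Of 7 genes for dynein assembly, 1 was higher (14.3%, against 14.0% of all genes) and 1 lower (14.3%, against 10.2%). These shares are near those of all genes. Cfap300 read 7.49, 7.996 and 7.35 in CCK-EGFP cells against 3.19, 5.27 and 4.20 in non-EGFP cells, of which replicate 2 alone was above background. It was at least 8.06-fold higher in CCK-EGFP cells (fitted difference 3.39, SE 0.52, adjusted p = 0.00687). Dnaaf2, a factor that readies dynein heavy chains with heat shock proteins, read 6.26, 6.38 and 6.10 in CCK-EGFP cells against 7.04, 7.65 and 7.58 in non-EGFP cells, 2.26-fold lower (difference -1.18, SE 0.23, adjusted p = 0.015). The Dnaaf2 call ended without CCK-EGFP replicate 1 or 2 (up to 0.0557), and its second probe set, above background in both groups, differed by 0.55. Cfap298 was well expressed in both groups, at 10.06, 9.95 and 10.10 in CCK-EGFP cells against 9.02, 9.81 and 9.10 in non-EGFP cells (difference 0.73, SE 0.26, adjusted p = 0.0844). Dnaaf1 likewise read 8.46, 8.54 and 8.38 in CCK-EGFP cells against 8.95, 9.32 and 8.72 in non-EGFP cells (difference -0.54, SE 0.21, adjusted p = 0.111). With the sets used, the groups did not overlap for these 2 genes, but neither passed over all genes. Other Cfap298 probe sets differed by 0.76, -0.71 and -0.81, the last with the groups parted the other way. None of them was called when probe sets were tested alone.

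Genes of the radial spokes and the regulatory complex held calls in both directions. Of 8 genes, 2 were higher (25%, against 14.0% of all genes) and 1 lower (12.5%, against 10.2%). Rsph9, a spoke head protein, read 8.46, 8.59 and 7.76 in CCK-EGFP cells against 6.45, 4.62 and 5.01 in non-EGFP cells, 7.54-fold higher (difference 2.91, SE 0.51, adjusted p = 0.0104). Rsph1, its neighbour in the spoke head, read 6.49, 6.46 and 7.39 in CCK-EGFP cells against 5.26, 4.97 and 4.82 in non-EGFP cells (3.39-fold, difference 1.76, SE 0.31, adjusted p = 0.0102) and was named after its values were seen. Another spoke head gene, Rsph4a, spanned 3.07 to 5.32 in CCK-EGFP cells against 3.80 to 7.31 in non-EGFP cells, the groups overlapping (difference -1.48, SE 0.97, adjusted p = 0.283). Drc3, of the nexin-dynein regulatory complex, read 4.95, 5.59 and 5.07 in CCK-EGFP cells against 8.11, 6.74 and 6.49 in non-EGFP cells. It was 3.76-fold lower in CCK-EGFP cells (difference -1.91, SE 0.45, adjusted p = 0.0273), and the call ended without any 1 array of CCK-EGFP cells or non-EGFP replicate 2 (up to 0.0912). The second Drc3 probe set averaged 4.43 in CCK-EGFP cells against 4.83 in non-EGFP cells, with overlapping groups. It differed by -0.40 and was not called when probe sets were tested alone (adjusted p = 0.604). Rsph3a, a spoke stalk protein, read 7.92, 7.60 and 7.83 in CCK-EGFP cells against 8.74, 8.26 and 7.99 in non-EGFP cells (difference -0.55, SE 0.25, adjusted p = 0.143), and its second probe set differed by -0.85 and was called when probe sets were tested alone. Drc1 overlapped between the groups at 7.70, 7.41 and 7.83 in CCK-EGFP cells against 8.42, 8.29 and 7.71 in non-EGFP cells (adjusted p = 0.184).

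Tekt2 had the largest fitted difference of all 58 genes. Tekt2, a filament protein of the doublet microtubules, read 10.27, 10.56 and 10.48 in CCK-EGFP cells against 3.29, 3.74 and 4.18 in non-EGFP cells. All non-EGFP values were below the background level, and Tekt2 was at least 57.2-fold higher in CCK-EGFP cells (fitted difference 6.70, SE 0.27, adjusted p = 0.000104). It has 1 probe set. Of the other 4 tektins none passed: Tekt4 read 6.05, 6.75 and 4.89 in CCK-EGFP cells against 4.84, 4.21 and 3.58 in non-EGFP cells (difference 1.69, SE 0.54, adjusted p = 0.0637), and with the replicate number as a block it was called (0.0337). Tekt1, Tekt3 and Tekt5 differed by -0.75, -0.33 and -0.76, with CCK-EGFP means below the background level. Tekt1 and Tekt5 were called lower with arrays centred on their medians (adjusted p = 0.0313 and 0.0308). The difference of Tekt2 from its family members was not tested.

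**Figure D3:**
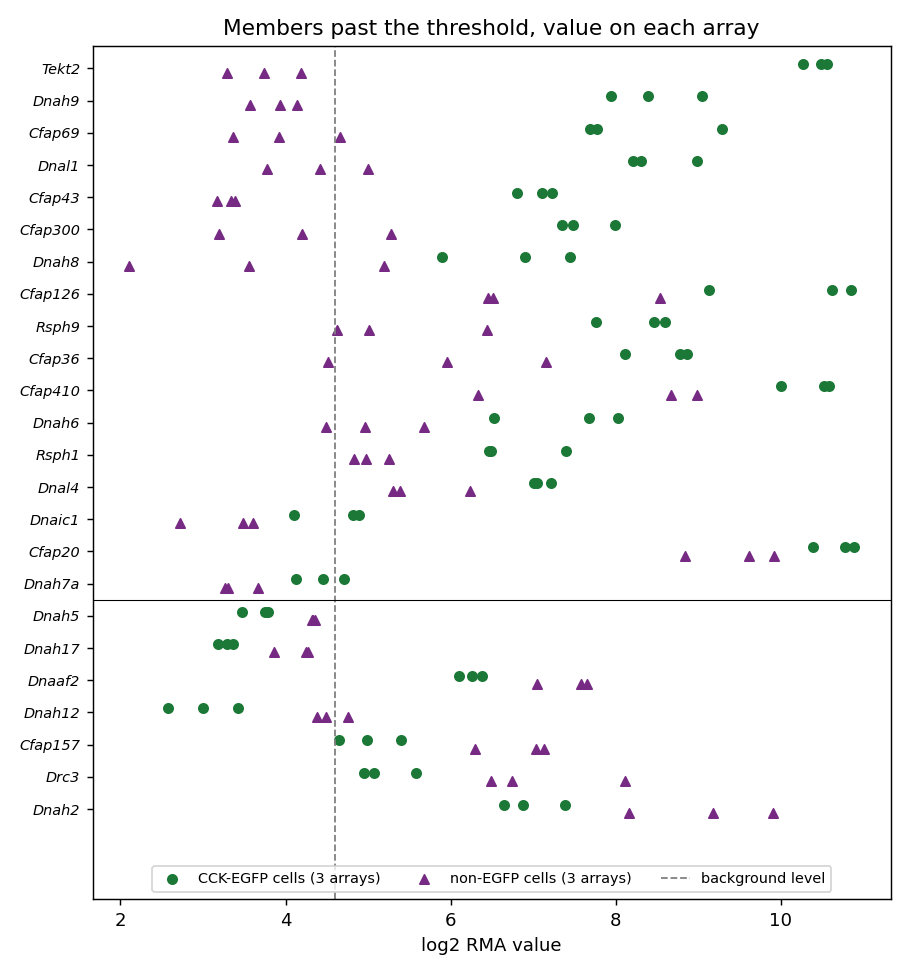
Log2 RMA value on each array (x axis) of the 24 genes past the threshold, CCK-EGFP arrays as circles and non-EGFP arrays as triangles, with genes ordered by their difference and those lower in CCK-EGFP cells under the line. For Tekt2 the 3 CCK-EGFP arrays lie at 10.27 to 10.56, far from the non-EGFP arrays at 3.29 to 4.18.

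The 23 other genes named for cilia and flagella split into 6 higher (26.1%, against 14.0% of all genes), 1 lower (4.35%, against 10.2%) and 16 that missed the threshold. Cfap69, needed in mice for sperm flagella and present in cilia of olfactory neurons, read 9.28, 7.68 and 7.77 in CCK-EGFP cells against 4.65, 3.37 and 3.92 in non-EGFP cells. It was at least 12.5-fold higher in CCK-EGFP cells (fitted difference 4.26, SE 0.53, adjusted p = 0.0031). Its other 2 probe sets had means below background in both groups and differed by 1.32 and 0.01. Cfap43, also required for sperm flagella, read 7.22, 6.80 and 7.11 in CCK-EGFP cells against 3.34, 3.17 and 3.38 in non-EGFP cells, at least 5.45-fold higher (fitted difference 3.75, SE 0.20, adjusted p = 0.000157). The probe set behind this value is of a kind that can match several transcripts, and the other 2, with means below background, differed by 0.94 and 0.04. The last of these was slightly brighter in non-EGFP cells, at a mean of 3.46 against 3.30, so this call too depends on the choice of set.

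Cfap126, known as Flattop, positions basal bodies in multiciliated cells and marks a subset of beta cells in the mouse pancreas. It read 10.62, 10.85 and 9.13 in CCK-EGFP cells against 6.45, 8.54 and 6.52 in non-EGFP cells, 8.19-fold higher (difference 3.03, SE 0.70, adjusted p = 0.0255). CCK-EGFP replicate 3 and non-EGFP replicate 2 came within 1 unit of each other, and the call ended without replicate 1 or 2 of CCK-EGFP cells or 1 or 3 of non-EGFP cells (up to 0.0925). Cfap36, a binding partner of the ciliary GTPase Arl3, read 8.87, 8.77 and 8.12 in CCK-EGFP cells against 4.52, 7.16 and 5.95 in non-EGFP cells (6.54-fold, difference 2.71, SE 0.65, adjusted p = 0.0282, up to 0.0961 without replicate 1 or 2 of CCK-EGFP cells or 3 of non-EGFP cells). Cfap410, a protein of the primary cilium base, read 10.58, 10.53 and 9.996 in CCK-EGFP cells against 8.98, 6.33 and 8.67 in non-EGFP cells. Its difference of 2.37 (SE 0.69, adjusted p = 0.0499) was at the threshold and was not called with the replicate number as a block (0.0614) or without any 1 array of CCK-EGFP cells or non-EGFP replicate 3 (up to 0.14). The second Cfap410 probe set, above background in both groups, averaged 8.59 in CCK-EGFP cells against 7.79 in non-EGFP cells. It differed by 0.80, with overlapping groups, and was not called when probe sets were tested alone (adjusted p = 0.131).

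Cfap20, which seals the junction of the doublet tubules and was named after its values were seen, read 10.78, 10.89 and 10.39 in CCK-EGFP cells against 9.62, 8.84 and 9.91 in non-EGFP cells (2.34-fold, difference 1.23, SE 0.32, adjusted p = 0.0375). It was not called with the replicate number as a block (0.0712), with arrays centred on their medians (0.0521) or without any 1 array except non-EGFP replicate 3 (up to 0.126), although both of its probe sets passed when tested alone. The lower gene was Cfap157, needed for sperm flagella in mice, at 5.40, 4.64 and 4.99 in CCK-EGFP cells against 7.04, 7.14 and 6.29 in non-EGFP cells. All 6 values were above background, and Cfap157 was 3.51-fold lower in CCK-EGFP cells (difference -1.81, SE 0.31, adjusted p = 0.0104). Cfap52, a protein inside the doublet tubules, read 7.76, 7.47 and 7.37 in CCK-EGFP cells against 6.74, 7.08 and 5.76 in non-EGFP cells (difference 1.01, SE 0.36, adjusted p = 0.0863). Cfap97 overlapped at 8.92, 9.42 and 8.82 in CCK-EGFP cells against 9.22, 9.56 and 9.47 in non-EGFP cells (adjusted p = 0.271). Besides the 8 genes with the highest means that did not pass, 26 other members of the whole group did not pass, with differences from -1.48 to 1.69 and both means below background for 18 of them.

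The choice of probe set mattered for several of these genes. Tested each on its own, 10.4% of all 34945 named probe sets were higher and 8.52% lower. Of the 58 genes, 26 have more than 1 probe set, and in 8 of those the differences of the probe sets had both signs. Each used set of Cfap69, Cfap43, Dnal1 and Dnah8 was far above background in CCK-EGFP cells, whereas all their other sets had means below it in both groups. When a gene's probe sets were averaged, 16 of the 58 were higher (27.6%, against 13.3% of all genes) and 7 lower (12.1%, against 12.3%). There, Dnah8 (1.37, adjusted p = 0.0857) and Dnaaf2 (-0.31, adjusted p = 0.531) were no longer called. With the set that is brightest in non-EGFP cells, Cfap43 (0.04, adjusted p = 0.908), Dnal1 (-0.77, adjusted p = 0.227) and Dnah8 (-0.38, adjusted p = 0.332) were not called, and Cfap410, whose set is unchanged, missed the threshold (0.0509).

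**Figure D4:**
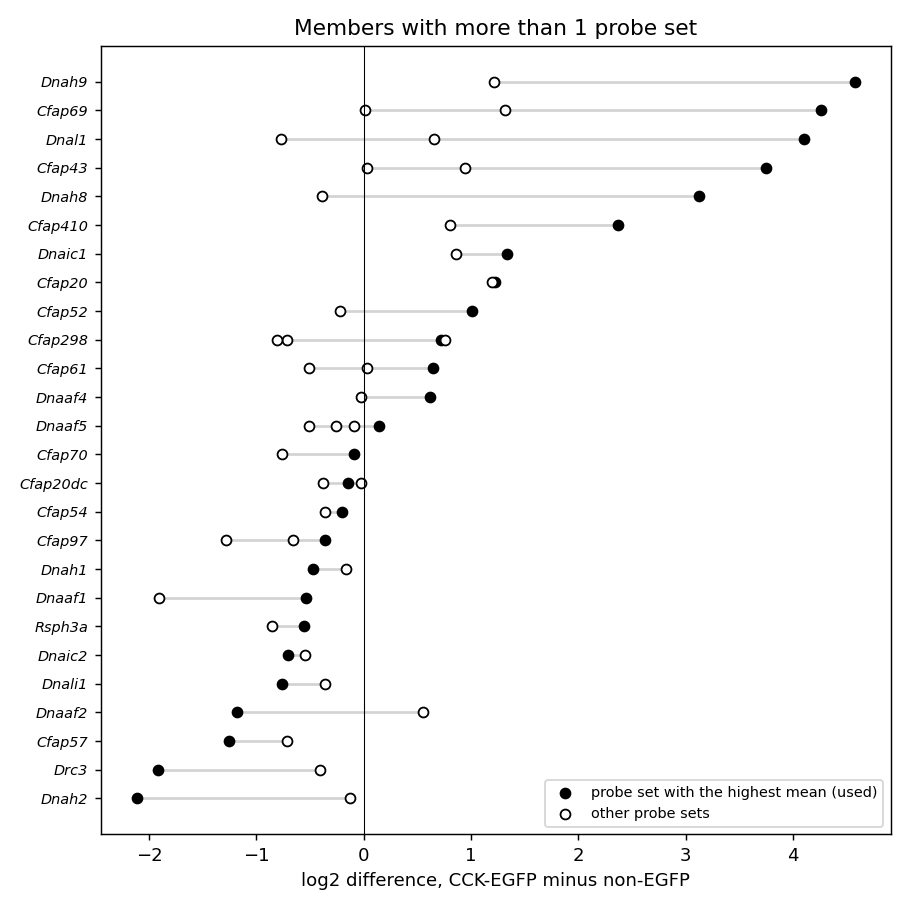
Log2 difference, CCK-EGFP minus non-EGFP, of every probe set of the 26 genes with more than 1; filled points are the sets used here and open points the others. For Dnah9 both sets lie above 0, while for Dnal1, Dnah8 and Dnaaf2 the sets fall on both sides.

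Axoneme and motility assembly genes outside the naming rule came from a list of 55, of which 52 were measured. Of these, 10 were higher (19.2%, against 14.0% of all genes), 1 was lower (1.92%, against 10.2%) and 41 did not pass. Their median difference was 0.28, against -0.17 for all genes. The lower count was 4 with arrays centred on their medians or without non-EGFP replicate 3, and 2 without non-EGFP replicate 1 or with a second quantile normalization. Efcab1, a calcium-binding protein of the outer arm docking complex also called calaxin, read 10.10, 9.86 and 9.52 in CCK-EGFP cells against 4.06, 2.54 and 4.28 in non-EGFP cells, at least 37.5-fold higher (fitted difference 6.20, SE 0.47, adjusted p = 0.000539). Nme5, a radial spoke protein, was at least 10.6-fold higher (adjusted p = 0.00187). Tcte1, a subunit of the nexin-dynein regulatory complex like Drc3, was higher by 3.40 (SE 0.31, adjusted p = 0.0011), and Mdm1, a centriole protein, at least 6.32-fold (adjusted p = 0.00361). The lower gene, named after its values were seen, was Ccdc114 of the docking complex, at 7.55, 6.89 and 7.49 in CCK-EGFP cells against 10.26, 9.89 and 9.22 in non-EGFP cells (difference -2.48, SE 0.33, adjusted p = 0.00424). Ccdc39, which sets the spacing of inner arms and spokes, averaged 7.67 in CCK-EGFP cells against 7.51 in non-EGFP cells (adjusted p = 0.807), and Pih1d1 averaged 10.08 in CCK-EGFP cells against 10.37 in non-EGFP cells (adjusted p = 0.275).

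Primary cilium transport was represented by 31 genes, with a median difference of 1.62 (against -0.17 for all genes). Of these, 17 rose in CCK-EGFP cells (54.8%, against 14.0% of all genes) and 3 fell (9.68%, against 10.2%). Without CCK-EGFP replicate 1 the lower count was 0, and without any other 1 array except non-EGFP replicate 3 it was 1. The 3 lower genes, named after their values were seen, were Ift20 (-0.90), Ift22 (-0.84) and Ift43 (-1.14) of intraflagellar transport, the last not called with the replicate number as a block (adjusted p = 0.0555). Among the higher ones were Tulp3 (at least 21.6-fold), the BBSome gene Ttc8 (at least 7.38-fold), and Ift122 (at least 8.90-fold) and Ift81 (11.1-fold), also of intraflagellar transport, while Ift172 and Ift46 did not pass. Of 10 cytoplasmic dynein motor genes 3 were higher (30%, against 14.0% of all genes) and 0 lower, with a median difference of 0.43. The higher ones were Dynlrb2 (at least 2.63-fold), Dynll1 (2.85-fold) and Dynlt3 (1.92-fold). The heavy chain Dync1h1 averaged 11.45 in CCK-EGFP cells against 11.40 in non-EGFP cells (adjusted p = 0.853). Of 10 measured regulators of ciliogenesis, 3 were higher (30%, against 14.0% of all genes) and 1 lower (10%, against 10.2%), with a median difference of 0.05. Without CCK-EGFP replicate 1 or replicate 2 Rfx3 alone was called. Rfx3, which drives cilia genes and endocrine pancreas development in mice, read 10.81, 10.24 and 10.33 in CCK-EGFP cells against 7.14, 7.30 and 7.84 in non-EGFP cells (difference 3.03, SE 0.27, adjusted p = 0.000968). Foxj1, the master regulator of motile ciliogenesis, named here for that role after its values were seen, was below background on every array, at 3.78, 3.92 and 3.96 in CCK-EGFP cells against 4.48, 4.45 and 3.92 in non-EGFP cells. Rfx7 (1.17), Rfx5 (1.06) and Rfx1 (-1.27) were also called, and all 3 calls ended without single arrays (adjusted p up to 0.0593, 0.111 and 0.0993). With the replicate number as a block, Rfx5 and Rfx1 were not called (adjusted p = 0.0623 and 0.0614), and with arrays centred on their medians Rfx5 was not (0.0895). Myb and Rfx2 did not pass (adjusted p = 0.53 and 0.418).

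Markers of other cells that hold axonemes or microtubule bundles were read beside these results. Of 15 measured multiciliated cell markers, 5 were higher in CCK-EGFP cells (33.3%, against 14.0% of all genes) and 2 lower (13.3%, against 10.2%). The other 8 did not pass (median difference 0.42, against -0.17 for all genes). Their mean ran from 6.77 to 7.17 on the CCK-EGFP arrays and from 5.64 to 6.20 on the non-EGFP arrays. The median over all genes parted the groups as well, at 7.39 to 7.54 in CCK-EGFP cells against 6.58 to 6.92 in non-EGFP cells. That is a median within each array and not a mean, so it is no like measure. The median of the per-gene differences over all genes was -0.17. Capsl (at least 11.9-fold), the alpha-tubulin gene Tuba1a (17.2-fold), Fam183b (9.73-fold) and 1700007K13Rik (at least 3.15-fold) were higher. The lower count was 0 without replicate 1 or 2 of CCK-EGFP cells or 2 of non-EGFP cells, 1 without CCK-EGFP replicate 3 or non-EGFP replicate 1, and 4 with arrays centred on their medians. Deup1, which builds the centrioles of multiciliated cells and was named after its values were seen, was at 3.40, 3.72 and 3.72 in CCK-EGFP cells against 4.61, 4.79 and 4.36 in non-EGFP cells, and like Foxj1 its means were below background in both groups. Tppp3 did not pass (adjusted p = 0.501). Mycbpap, with a difference of -0.98, did not pass either (adjusted p = 0.0529) but was called with the replicate number as a block (0.032), while Tubb4b, called lower besides Deup1, lost its call there (0.0821).

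The 22 sperm and spermatid markers held 2 higher genes (9.09%, against 14.0% of all genes) and 1 lower (4.55%, against 10.2%). Of the 22, 13 had both means below background (median difference of the list -0.38). Their mean was 4.28 to 4.49 on the CCK-EGFP arrays and 4.33 to 4.79 on the non-EGFP arrays. The called markers were Oaz3 (at least 2.07-fold higher), Odf2 (2.10-fold higher) and Prm2 (difference -0.94, its CCK-EGFP mean below background). Each call ended without single arrays, so that 0 were higher without CCK-EGFP replicate 1 or replicate 2, and 1 without non-EGFP replicate 1 or replicate 3. With probe sets averaged 0 were higher, and with arrays centred on their medians 1 was. Without CCK-EGFP replicate 1 the lower count was 0, and without non-EGFP replicate 3 or with arrays centred it was 2. Prm1 did not pass, and Catsper2, with a difference of 1.06, did not (adjusted p = 0.139) but was called with the replicate number as a block (0.0436).

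**Figure D5:**
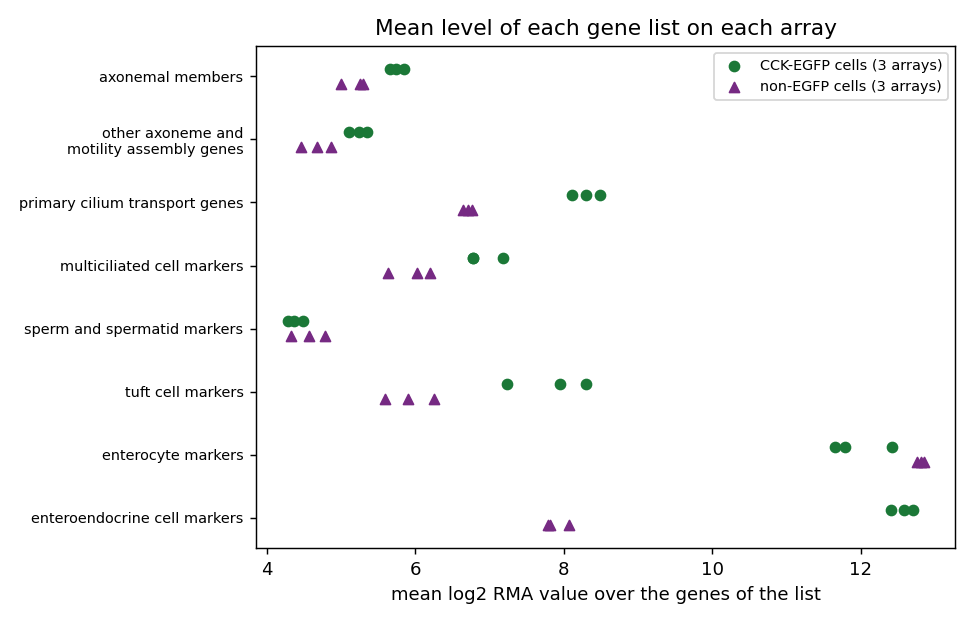
Mean log2 RMA value over the genes of each list (x axis) on each array, CCK-EGFP arrays as circles and non-EGFP arrays as triangles. The tuft cell and multiciliated lists part the groups, the sperm list overlaps, and the 58 axonemal genes average 5.65 to 5.85 in CCK-EGFP cells against 4.996 to 5.30 in non-EGFP cells. The median over all genes, not plotted, parts the groups as well, at 7.39 to 7.54 in CCK-EGFP cells against 6.58 to 6.92 in non-EGFP cells. It is not the same measure as these means, and the median of the per-gene differences over all genes was -0.17. The mean of the measured regulators of ciliogenesis, not plotted, also parts the groups, at 7.46 to 7.59 in CCK-EGFP cells against 7.16 to 7.20 in non-EGFP cells. Parted groups are thus not particular to the lists plotted.

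Tuft cells, chemosensory cells of the epithelium with prominent microtubule bundles, were read by their own marker list. Of 11 measured, 5 were higher in CCK-EGFP cells (45.5%, against 14.0% of all genes), 0 lower and 6 did not pass (median difference 1.48). The mean of the list ran from 7.23 to 8.30 on the CCK-EGFP arrays and from 5.59 to 6.26 on the non-EGFP arrays. Alox5ap (20.5-fold), Dclk1 (at least 17.7-fold), Sh2d6 (14.3-fold) and Avil (5.54-fold) were higher, while Trpm5 averaged 10.07 in CCK-EGFP cells against 9.41 in non-EGFP cells (adjusted p = 0.156) and Plcb2 did not pass. Pou2f3, the factor that specifies tuft cells, also named after its values were seen, was below background in both groups. Enterocyte markers, 12 in all, held 3 lower (25%, against 10.2% of all genes) and 0 higher genes (median difference -0.77). That lower count was 0 without replicate 1 or 2 of either group, 5 without CCK-EGFP replicate 3 and 1 without non-EGFP replicate 3. It was 1 with the replicate number as a block, 7 with arrays centred on their medians and 6 with trend and robust eBayes. The part of these cell types in the axonemal results was not tested. In sorted pools such as these, fewer cells of a type and less RNA per cell cannot be told apart, and the number of arrays limits the precision.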

How the data were processed

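RNA of 6 samples, 3 of CCK-EGFP and 3 of non-EGFP intestinal cells, was amplified from picogram amounts and labelled with biotin per the labels' protocols. A table with 45101 probe sets was deposited by the authors, and its values come from RMA per the submitters' processing notes. RMA normally corrects background, normalizes quantiles and summarises probe sets on a log2 scale, and the deposited values, whose range fits that scale, were read as log2 intensities. For RMA no version is given in the sources used here. The values run from 1.47 to 14.8, and array medians were 5.66 to 5.72 for CCK-EGFP cells against 5.37 to 5.55 for non-EGFP cells. Quantile normalization can reduce a broad shift between groups. RMA gives no detection call.

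The platform annotation gave 34945 probe sets 1 gene symbol and 932 several, and 9160 are unnamed here. A RefSeq gene table (GRCm38.p6) held 34741 of the identifiers and changed 0 symbols. The probe set with the highest mean stood for each of 18193 genes, of which 9010 have more than 1. The test was limma's moderated test (version 3.58.1, R 4.3.3), two-sided, with Benjamini-Hochberg adjustment across all genes and a threshold of 0.05. Promoters and figures used Python 3.11.15, pandas 2.3.3 and matplotlib 3.10.9.

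The members, gene lists and tests were chosen with earlier results of these data known. Values per array are given for up to 12 higher and 12 lower genes past the threshold and above background in a group, and for the 8 with the highest means among those that did not pass. From each other list up to 4 called genes by size and up to 2 others by mean are named. The labels number samples 1 to 3 in both groups. Across genes, deviations from group means correlated at 0.27, 0.159 and 0.219 for the 3 same-numbered pairs, and each r is over 0.1, so equal numbers count as pairs here. The main test was on group alone and ignores these pairs, which enter only through the replicate number as a block, an alternative. Calls of the 58 genes, and of other genes named, that the block ends or gives are marked beside them. Alternatives were this block, a filter at the background level, a filter on the dimmest 25% of genes, trend and robust eBayes, median centring, quantile normalization once more, averaging a gene's probe sets, each probe set tested alone, leaving out each array, and, added after seeing the data, choosing probe sets by the non-EGFP mean.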

Additional observations from a re-analysis of the deposited data

How the results depend on the processing

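With probe sets chosen by the non-EGFP mean, added after seeing the data, 13 of the 58 were higher and 7 lower, and Dnah8 (-0.38) and Dnal1 (-0.77) turned direction without a call, since another probe set then stands for them. No called gene changed direction in the other 14 alternatives. The count of higher genes, 17, was 14 to 17 in the 8 others that keep every array and 9 to 15 when 1 array was left out. The count of lower genes, 7, was 5 to 10 in the 8 others that keep every array, apart from the filter at the background level. That filter left 33 of the 58 genes tested and gave 4 (12.1%, against 13.3% of all genes tested). Elsewhere with every array kept, single probe set tests aside, 8.62% to 17.2% were lower, against 8.43% to 19.8% of all genes. When 1 array was left out the lower count was 2 to 8 (3.45% to 13.8%, against 2.78% to 10.8%). With the replicate number as a block 14 were higher and 5 lower. The block ended the calls of Cfap20, Cfap410, Dnah8, Dnaic1, Dnah17 and Dnah5, gave one to Tekt4 and changed no other of the 58. Median centring gave 2101 higher and 3605 lower genes in all, against 2540 and 1851. Trend and robust eBayes (adjusted p = 0.0504), a second quantile normalization (0.0586) and single probe set tests (0.0552) each ended the call of Dnah5. The second quantile normalization also ended that of Dnah8 (0.0503), and the single probe set tests that of Cfap410 (0.0553). Cfap298, Cfap57, Rsph6a, Tekt1, Tekt4 and Tekt5, which did not pass, were each called in at least 1 alternative. Array number, amplification of small amounts and the absence of detection calls limit what can be said of genes near background.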
